A study of Bos taurus with 42 samples.

Results

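The 34 piRNA clusters described here are the large and mid-size clusters of a bovine small RNA table other than its main clusters on chromosomes 6, 17 and 23. Each deposited row assigned to piRNA clusters was grouped by the cluster named first in its annotation, and clusters with 50 or more rows were taken, leaving out those 3. This gave 34 of 616 clusters, with 4770 of 9474 piRNA rows. A row is an annotation (up to 3 cluster hits, each with at most a single mismatch), not a printed sequence, and can pool several sequences. The clusters with the fewest rows inside the limit were a cluster on chromosome 6 with 51 rows and clusters on chromosomes 10, 11 and 12 with 54 each. Just outside it lay clusters on chromosomes 15 and 16 with 48 rows each. Clusters are called here by chromosome and a letter in order of row number, so that chr14a is the chromosome 14 cluster with the most rows.

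The series holds 42 libraries of a size-selected small RNA fraction, read on an Ion Proton instrument. The 3 oocyte libraries hold oocytes matured in culture with follicle stimulating and luteinizing hormone, and the 3 fibroblast libraries hold primary ear fibroblasts of a Brahma Spanish bull cross. IVF embryos were made with semen of a Holstein bull, and nuclear transfer (NT) embryos by fusing 1 serum-starved donor fibroblast of the same culture with an oocyte whose metaphase plate had been removed under demecolcine, followed by activation (the agent is not given in the sources used here). Sire, nuclear genome and manipulation therefore differ together between IVF and NT embryos. Embryos were cultured with bovine cumulus cells and pooled by 20 embryos at the 2-cell (day 2), 8-cell (day 3), morula (day 6) and blastocyst (day 8) stages. The last groups were cells derived from IVF and from NT blastocysts. IVF groups held 4, 3, 4, 3 and 4 libraries from the 2-cell stage to derived cells, and NT groups 4, 4, 3, 4 and 3. All fibroblasts came from 1 animal, and the labels give 4 pools in one place and 3 in another.

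PIWI-interacting RNAs (piRNAs) are small RNAs of the germ line that guide PIWI proteins to transposon transcripts and to nascent transcripts of the same sequence. They are cut from long precursor transcripts made at clusters, many of which hold remnants of transposons. Mammalian oocytes store piRNAs, and somatic cells hold few. Because clusters share repeats, many piRNAs match several clusters at once.

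Several libraries stood apart before any comparison. Recovered reads of the table ranged from 25119 to 3081186 per library, and reads of piRNA rows from 486 to 1483129. IVF morula replicate 1 held 1125 piRNA reads (0.14% of its normalised reads), of which 6 fell in the 34 clusters. IVF morula replicate 3 held 3696 piRNA reads, and 1 row of the chromosome 13 cluster made up 1127 of them. The 12 fibroblast miRNAs of a marker list summed to 88947 reads in each 1000000 normalised reads in IVF morula replicate 1, against a group median of 4780, 1454 to 4245 in oocytes, 9473 to 100248 in fibroblasts and 86760 to 206606 in IVF derived cells. The epithelial and trophectoderm list (3 of 7 found) summed to 9164 in that library, 0 to 829.1 in the other 3 IVF morulae, 0 to 5.21 in fibroblasts and 12.7 to 15436 in IVF derived cells, where replicate 2 was the lowest. The cumulus and granulosa list (4 of 6 found) summed to 9809 in that morula library, 0 to 564 in the other 3, 15.8 to 19310 in fibroblasts and 140 to 26192 in IVF derived cells. The 19310 was fibroblast replicate 3, against 15.8 and 272.5 in replicates 1 and 4. On the fibroblast list, fibroblast replicate 1 stood at 9473, against 89166 and 100248. IVF 2-cell replicate 3 stood at 29988 on that list, against 800 to 5291 in the rest of its group. Of the pluripotency list 2 of 6 miRNAs were found, at a sum of 533 to 1553 on that scale in blastocysts and 0 in all oocyte libraries, and up to 310 in fibroblasts. All 12345 rows were found in NT 2-cell replicate 4, so rows absent from that library are not listed. What part these features have in the results was not tested, and morula values are given with and without the libraries in question.

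The clusters were of unlike make-up. Of their 4770 rows, 71 had 1 hit, 323 had 2 and 4376 had 3, and 2647 rows (55.5%) also named another of the 34 clusters. In oocytes 1.13% of their reads lay on rows with 1 hit, and 56.9% on rows that also named a cluster on another chromosome. The reads therefore belong to a family of shared sequences as much as to a place, and of 5777 rows of the table whose first 2 hits named different chromosomes, 86.7% gave first the name that comes earlier in alphabetical order, such as 1 or 10. Chromosome 10 held 13 of the 34 clusters, chromosome 1 held 7 and chromosome 11 held 4. Mismatches were common: 79.3% of the rows carried one, beside 72.5% in all other clusters. By reads the gap was wider, with 54.5% of oocyte reads on rows without a mismatch here and 86.4% in the other clusters. Transitions (A with G, or C with T) made up 66.5% of the rows with a mismatch.

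The clusters differed in length (the limit of 50000 bp was chosen after seeing the lengths). The 5 clusters longer than that were chr14a (chr14:4892124-5053723), chr13 (chr13:77224209-77381007), chr3 (chr3:90985343-91116627), chr8 (chr8:24038435-24129155) and chr6 (chr6:93789044-93860889), in coordinates of UMD3.1/bosTau8 as the table gives them. They held 43.1% of the oocyte reads of the 34 clusters at 0.639 to 3.01 rows per kb. For each of them 69.4% to 98.3% of oocyte reads also named an overlapping call of the same region. A further hit of such a row could still lie elsewhere, and 16.6% to 32.0% of their oocyte reads also named another chromosome. The other 29 clusters were 5045 to 44313 bp long, with 1.75 to 55.7 rows per kb, and 25.2% to 100% of their oocyte reads also named another chromosome. Between 0% and 51.3% of their oocyte reads named an overlapping call. Longer and shorter clusters thus overlapped in rows per kb and in reads naming another chromosome. Some of these lay close together: chr10b and chr10l were 2249 bp apart, and chr11a and chr11c 54258 bp. Strand and the genes at these places were not analysed here.

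**Figure D1:**
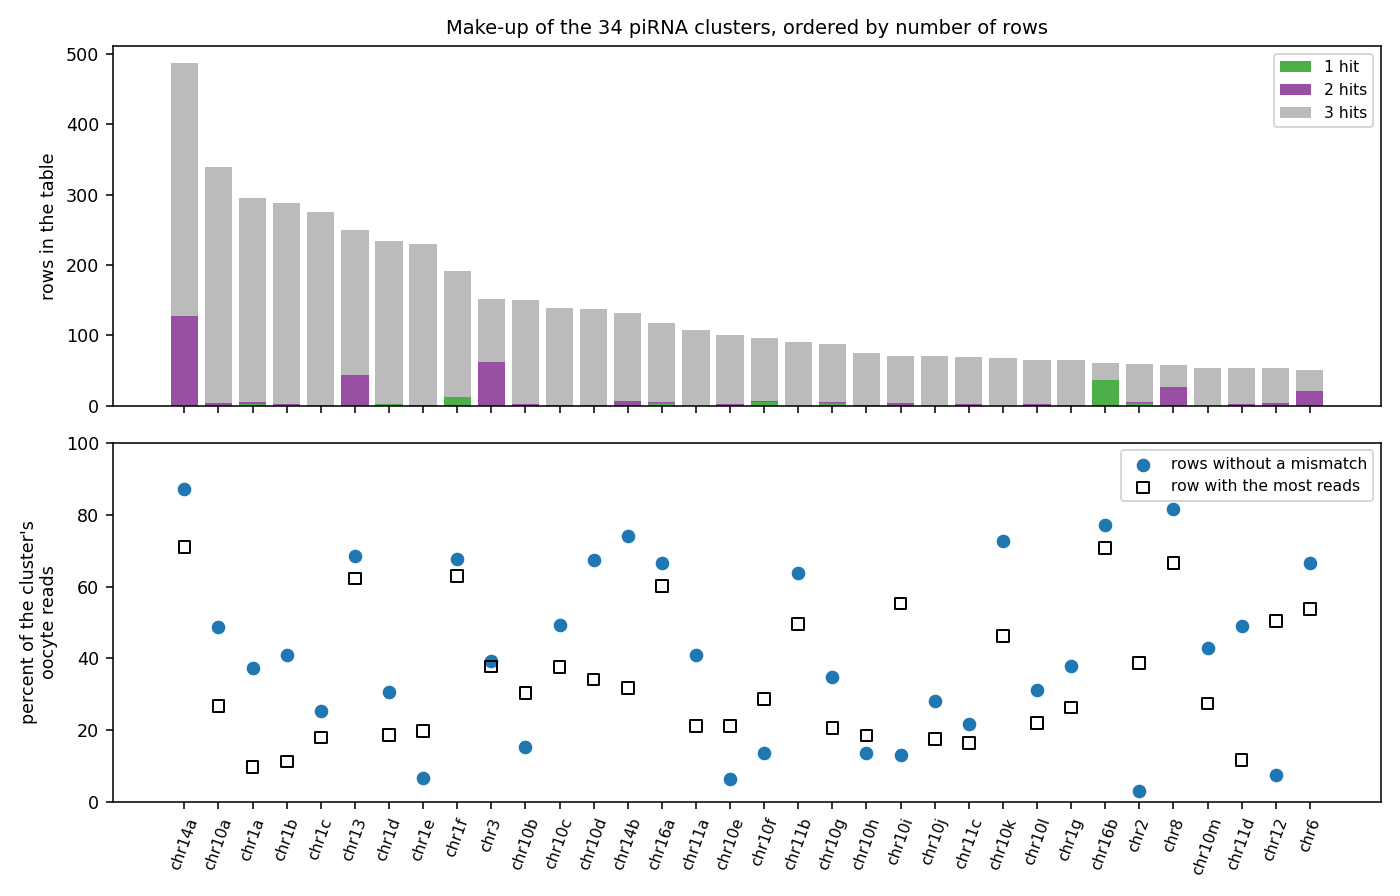
Make-up of the 34 clusters on the x axis, ordered by number of rows. The upper panel stacks rows by number of hits, and the lower panel gives the percent of each cluster's oocyte reads on rows without a mismatch (circles) and on its row with the most reads (squares). Only chr16b has most of its rows with 1 hit (36 of 60).

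A single row could hold most of a cluster. The row with the most reads held 71.1% of the oocyte reads of chr14a and 70.7% of those of chr16b (chr16:11479342-11486025), and 9.79% of those of chr1a (chr1:24843004-24848302). Over the 34 clusters the share on rows without a mismatch ran from 3.03% to 87.0%, and it was under 50% in 23 of them. In chr3 the leading row itself carried a mismatch, written here A9C (first letter, position and second letter in the order of the table, which does not say which base is the genome's or from which end positions count), with 37.8% of the reads. Oocyte levels ran from 1099 to 89387 normalised reads, with a median of 5506. Per kb of cluster, chr16a (chr16:61871008-61877017) led with 4002 normalised reads, followed by chr1a with 3577, while chr14a had 553 and chr6 had 18.1.

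The first question of the design is whether the clusters follow the maternal store through development. Together they held 427677, 469364 and 326560 normalised reads in oocytes. In IVF blastocysts they held 17207, 20793 and 14436, and in NT blastocysts 6974, 15513, 11772 and 5064. All 7 blastocyst libraries lay below all 3 oocyte libraries. In the 2-cell groups the range was 100615 to 511128, and in the 8-cell groups 114869 to 455633. NT morulae held 59925 to 101842, and IVF morula replicates 2 and 4 held 152093 and 127406. In pools, fewer cells with piRNA and less piRNA per cell cannot be told apart.

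**Figure D2:**
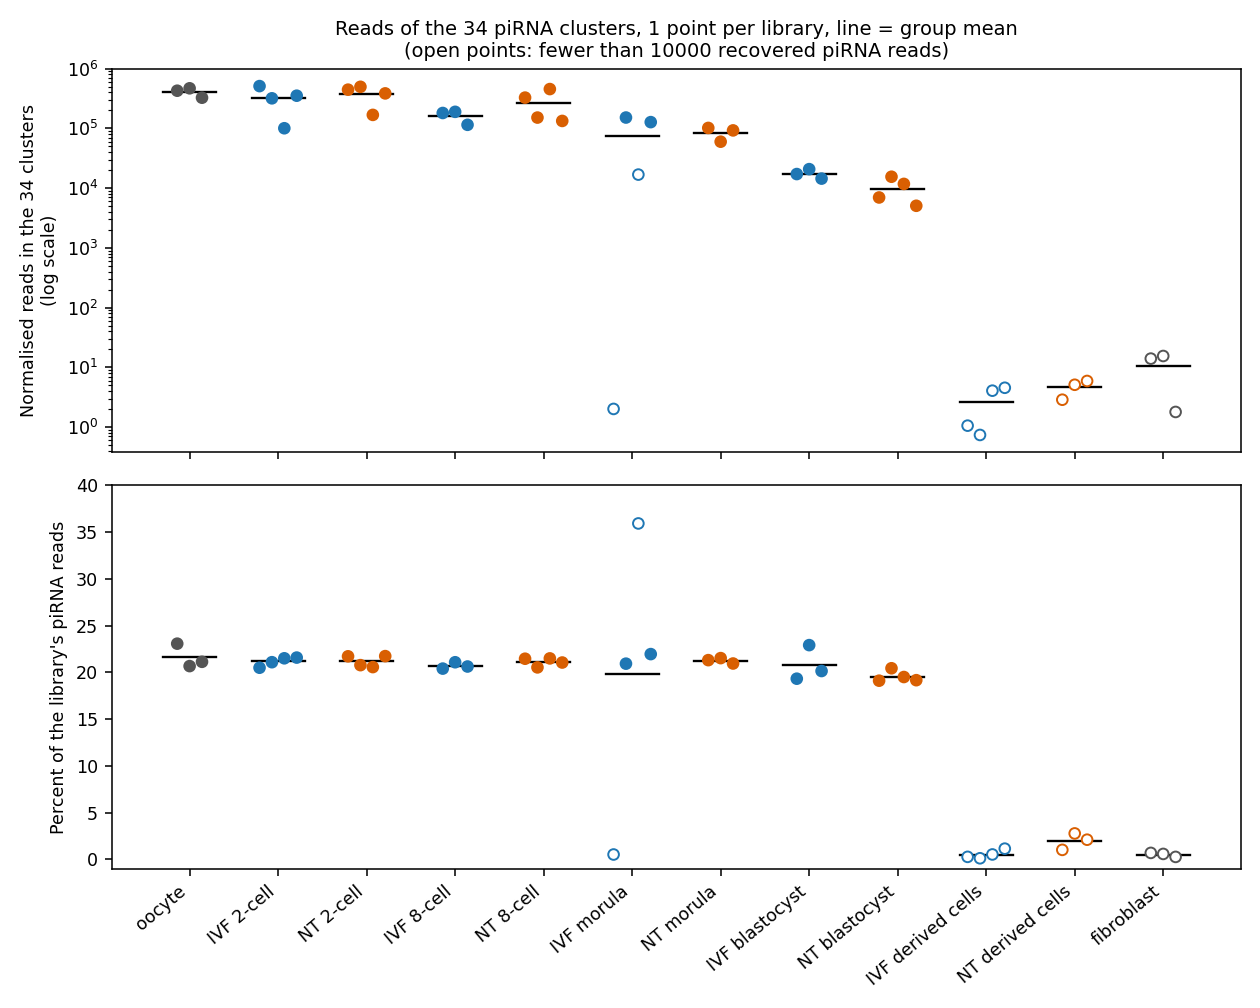
Summed reads of the 34 clusters, 1 point per library with a line at the group mean, as normalised reads on a log scale (upper panel) and as percent of the library's piRNA reads (lower panel). Open points are libraries with fewer than 10000 piRNA reads. Levels fall to blastocysts, while the share stays between 19.1% and 23.1% in every library with more piRNA reads.

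Levels were compared with limma on log2(normalised reads + 1) over 2200 features (all clusters summed and every other row), adjusted by the Benjamini-Hochberg method. In IVF blastocysts against oocytes 32 of the 34 clusters fell and none rose, where 33.2% of all features tested were lower and 7.5% higher (40.7% were called in either direction). The median change of the clusters was -4.53 on the log2 scale, beside -1.36 over all features. In NT blastocysts against the same oocytes 34 fell, where 41.4% of features were lower and 9.09% higher (50.5% in either direction), with medians of -5.66 and -1.50. The 2 clusters not called in IVF blastocysts were chr16b, with a log2 change of -3.34 (SE 1.52, limma adjusted p = 0.0727), and chr10f (chr10:60315007-60321439), with -3.19 (SE 1.36, limma adjusted p = 0.0552). Their SE comes from the spread over all groups, IVF morula replicates 1 and 3 among them. chr16b held 441 to 616 normalised reads in IVF blastocysts and 3727 to 6317 in oocytes, and chr10f 294 to 490 and 3094 to 3553. With a replicate block in the fit of only these groups, all 34 were called. Among the clusters left out by the rule, 2 of 3 were lower in IVF blastocysts (median -4.56), and of 84 clusters with 10 to 49 rows 80 were lower (median -4.81).

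How far these levels are called rests on the scaling. Centring each library on its median moved the median of all features to 0.41 in IVF and 0.53 in NT blastocysts and the share of higher calls among all calls from 18.4% to 58.5% and from 18% to 55.6%. The clusters' medians were then -2.77 and -3.63, with 8 and 23 of them called. With voom on recovered reads 1 and 8 were called. No cluster was called higher with either.

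Outside the embryo the clusters were nearly empty. All 34 passed the filter through oocyte and embryo libraries and none through fibroblasts or derived cells, and every listed row was found in an embryo library. The direction of the calls given next was therefore largely set in advance, and their counts are a description. Derived cells fell against their blastocysts for all 34 clusters in both series, where 18.8% of features were lower and 5.68% higher in IVF (24.5% in either direction) and 13% lower and 6.59% higher in NT (19.6%). Against oocytes all 34 were lower in fibroblasts, where 49.4% of features were lower and 6.82% higher (56.2% in either direction). Of the features called, 33.6% were higher in NT derived cells and 12.1% in fibroblasts, against 18% and 27.1% with library medians centred. In IVF derived cells 23.2% were higher, against 12.6% with voom. All 34 clusters were lower in each of these fits. The fitted medians were -7.86, -6.49 and -12.3 on the log2 scale. In IVF derived cells 27 of 34 clusters had no read in any library, in NT derived cells 26 and in fibroblasts 21. With every cluster at or under a floor of 3 reads per library set to that floor (33, 33 and 31 clusters), the median cluster was at least 371-fold lower in IVF derived cells than in IVF blastocysts, at least 134-fold lower in the NT pair, and at least 5592-fold lower in fibroblasts than in oocytes.

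NT and IVF embryos were then compared at each stage. No cluster was called at the 2-cell, 8-cell, morula or blastocyst stage. The spread of these tests is taken over all groups, IVF morula replicates 1 and 3 among them. On the log2 scale the SE ran from 1.00 to 1.43 at the 2-cell stage and from 1.08 to 1.54 at the 8-cell and blastocyst stages. Small differences could hardly be called, so the lack of a call does not show equal levels. In derived cells 22 of the 34 had no read in any library of either group and none passed the filter in those groups alone, so that stage could hardly give a call. Over these 5 stages 0.455%, 0%, 0%, 0.0455% and 0% of all features were called from the 2-cell stage to derived cells. At an unadjusted p under 0.05 the counts of clusters were 0, 0, 30, 0 and 0. The median differences (NT minus IVF) of the clusters were 0.41 at the 2-cell, 0.59 at the 8-cell, 3.82 at the morula and -0.92 at the blastocyst stage. The morula value rests on IVF morula replicates 1 and 3: without IVF morula replicate 2 or replicate 4, 31 clusters were called higher in NT, and without replicates 1 and 3 together none was called and none reached an unadjusted p under 0.05. With library medians centred 33 were higher in NT morulae, and with levels scaled to the piRNA reads of each library 14.

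Although their levels fell, the 34 clusters held between 19.1% and 23.1% of the piRNA reads in each of the 30 libraries with at least 10000 of them. They held 21.6% ± 1.27 of piRNA reads in oocytes (SD, n = 3), 21.2% ± 0.50 in IVF 2-cell embryos (SD, n = 4), 20.8% ± 1.88 in IVF blastocysts (SD, n = 3) and 19.5% ± 0.61 in NT blastocysts (SD, n = 4). NT blastocyst libraries, at 19.1%, 20.4%, 19.5% and 19.2%, all lay below the oocyte libraries, at 23.1%, 20.7% and 21.1%, whereas the IVF blastocyst libraries, at 19.3%, 22.9% and 20.1%, overlapped them. IVF morulae gave 19.8% ± 14.6 (SD, n = 4): replicates 2 and 4 stood at 20.9% and 21.9%, replicate 1 at 0.533% and replicate 3 at 35.9%. In fibroblasts the share was 0.526% ± 0.222 (SD, n = 3). There and in derived cells clusters with under 10 rows held 84.1% to 98.8% of the few piRNA reads.

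Within that sum single clusters changed in opposite directions. Each cluster's share was tested with limma on log2(reads in each 1000000 piRNA reads + 1) over 488 clusters in the 30 libraries with at least 10000 piRNA reads, a fit chosen after seeing the data. In IVF blastocysts against oocytes 3 clusters rose and 14 fell, where 8.4% of all clusters were higher and 23% lower (31.4% called). In NT blastocysts 4 rose and 17 fell, where 10.7% were higher and 29.1% lower (39.8% called). The medians of the 34 were -0.06 and -0.32 on the log2 scale, against -0.82 and -0.88 over all clusters tested. Both comparisons share the oocyte libraries. Most of these reads are shared with other clusters. With rows of 1 hit alone, taken as a share of the piRNA reads on such rows, 2 and 0 clusters were called. Without a trend in the fit, 13 were called in NT blastocysts.

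**Figure D3:**
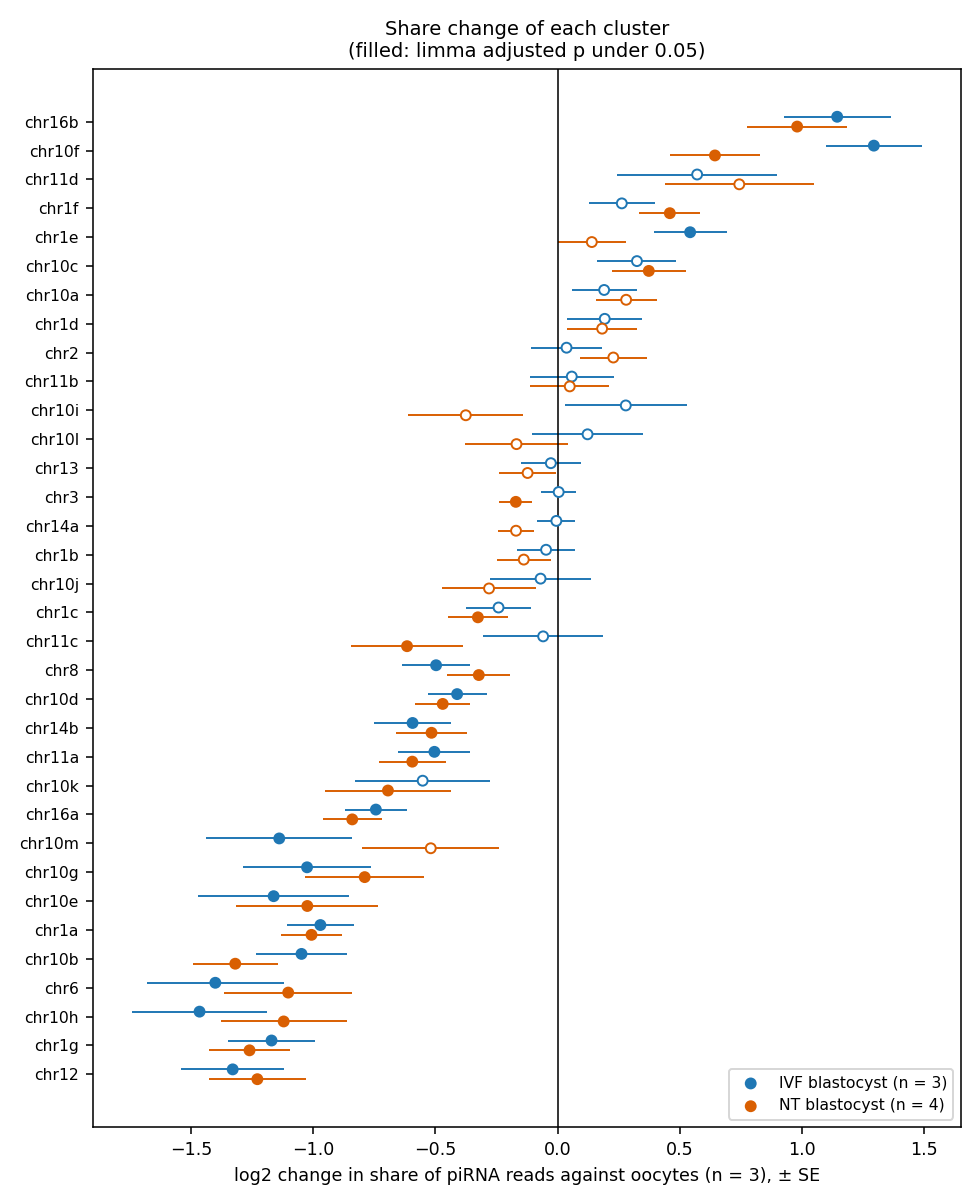
Change in share of piRNA reads from oocytes (n = 3) to IVF (blue, n = 3) and NT blastocysts (orange, n = 4) for each of the 34 clusters on the log2 scale, with SE bars. Filled points have a limma adjusted p under 0.05. chr16b and chr10f lie above 0 in both, with changes of 0.64 to 1.30, and chr12 and chr1g below 0 in both, with -1.17 to -1.33.

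Of the 4 clusters with the most rows, 1 was called by share. chr14a, the largest, held 5.31%, 4.32% and 4.62% of piRNA reads in oocytes, 4.57%, 4.97% and 4.63% in IVF blastocysts, and 3.96%, 4.94%, 4.22% and 3.80% in NT blastocysts. The groups overlapped, and its log2 changes of -0.00 (SE 0.08) and -0.17 (SE 0.07) were not called (limma adjusted p = 1 and 0.0625). The NT change was called without oocyte replicate 3 (-0.24) or NT blastocyst replicate 2 (-0.25). chr10a (chr10:8350209-8359878) held 1.30%, 1.09% and 1.30% in oocytes, 1.10%, 1.91% and 1.30% in IVF blastocysts and 1.498%, 1.57%, 1.24% and 1.66% in NT blastocysts. Both blastocyst groups overlapped the oocytes, and its log2 changes of 0.19 and 0.28 were not called (limma adjusted p = 0.285 and 0.0725). The first was called without IVF blastocyst replicate 2 (0.37) and the second without NT blastocyst replicate 3 (0.37).

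Of these 4 clusters chr1a was the one whose share fell. Its oocyte libraries stood at 1.03%, 1.01% and 0.951%, its IVF blastocysts at 0.477%, 0.688% and 0.402% and its NT blastocysts at 0.491%, 0.531%, 0.477% and 0.488%. No blastocyst library reached an oocyte library, and the fall was -0.97 (SE 0.14, limma adjusted p = 5.18e-06) in IVF and -1.01 (SE 0.13, limma adjusted p = 5.28e-07) in NT blastocysts. The group means passed through 0.845% and 0.876% at the IVF and NT 8-cell stage and 0.665% in NT morulae. chr1b (chr1:80905004-80913711) had 1.06%, 0.907% and 0.799% in oocytes, and its 7 blastocyst libraries lay between 0.701% and 0.972%, overlapping them (limma adjusted p = 0.811 and 0.34).

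Of the rising clusters chr16b is also the one mostly made of rows with 1 hit. It held 0.327%, 0.278% and 0.241% in oocytes, 0.570%, 0.485% and 0.859% in IVF blastocysts and 0.747%, 0.589%, 0.421% and 0.503% in NT blastocysts. All blastocyst libraries lay above the oocytes, with log2 changes of 1.15 (SE 0.22, limma adjusted p = 0.000221) and 0.98 (SE 0.20, limma adjusted p = 0.000503). Its leading row decided this. With each cluster's leading row left out, also from the piRNA total, the changes were -0.50 and -0.29, neither called (limma adjusted p = 0.102 and 0.3). As a share of the piRNA reads on rows with 1 hit alone, chr16b did not rise in NT blastocysts. chr10f held 0.171%, 0.156% and 0.200% in oocytes, 0.330%, 0.540% and 0.444% in IVF and 0.215%, 0.282%, 0.362% and 0.256% in NT blastocysts, again without overlap. It rose by 1.30 (SE 0.20, limma adjusted p = 1.21e-05) and 0.64 (SE 0.18, limma adjusted p = 0.00674). Rows with 1 hit held 3.26% of the oocyte reads of chr10f. As a share of the piRNA reads on rows with 1 hit alone, they gave -4.16 and -2.97. In NT embryos the mean share of chr10f was highest in morulae, at 0.346% ± 0.0119 (SD, n = 3), above every NT blastocyst library but 1.

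By the ratio of mean shares, all blastocyst libraries to oocytes, chr12 and chr1g fell furthest. chr12 (chr12:37306109-37313023) went from 0.195%, 0.136% and 0.165% in oocytes to 0.0651%, 0.0658% and 0.0640% in IVF and 0.0548%, 0.0985%, 0.0785% and 0.0557% in NT blastocysts, with changes of -1.33 (SE 0.21, limma adjusted p = 2.08e-05) and -1.23 (SE 0.20, limma adjusted p = 1.95e-05). chr1g (chr1:83046657-83054801) went from 0.182%, 0.170% and 0.159% to 0.0901%, 0.0736% and 0.0646% in IVF and 0.0754%, 0.0846%, 0.0738% and 0.0535% in NT blastocysts (limma adjusted p = 1.21e-05 and 1.06e-06). Neither had a blastocyst library at the level of an oocyte library. In single comparisons some clusters fell as far: chr10h by -1.47 and chr6 by -1.40 in IVF blastocysts, and chr10b by -1.32 in NT blastocysts. The other clusters that rose were chr1e in IVF blastocysts (0.54) and chr1f (0.46) and chr10c (0.37) in NT blastocysts. The ratio of mean shares was below 1 in 22 and above 1 in 12 of the 34 clusters, with a range from 0.414 in chr12 to 2.13 in chr16b. All 5 clusters longer than 50000 bp were among the 22, as were 17 of the 29 shorter ones. Of the 5, chr14a, chr3 and chr13 had ratios near 1 (0.942, 0.945 and 0.961), and chr8 and chr6 had 0.757 and 0.441. Across the 34 clusters this log2 ratio went weakly with length (Spearman's rho -0.18), rows per kb (0.26) and the share of reads without a mismatch (0.12), values that describe clusters sharing rows and libraries.

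**Figure D4:**
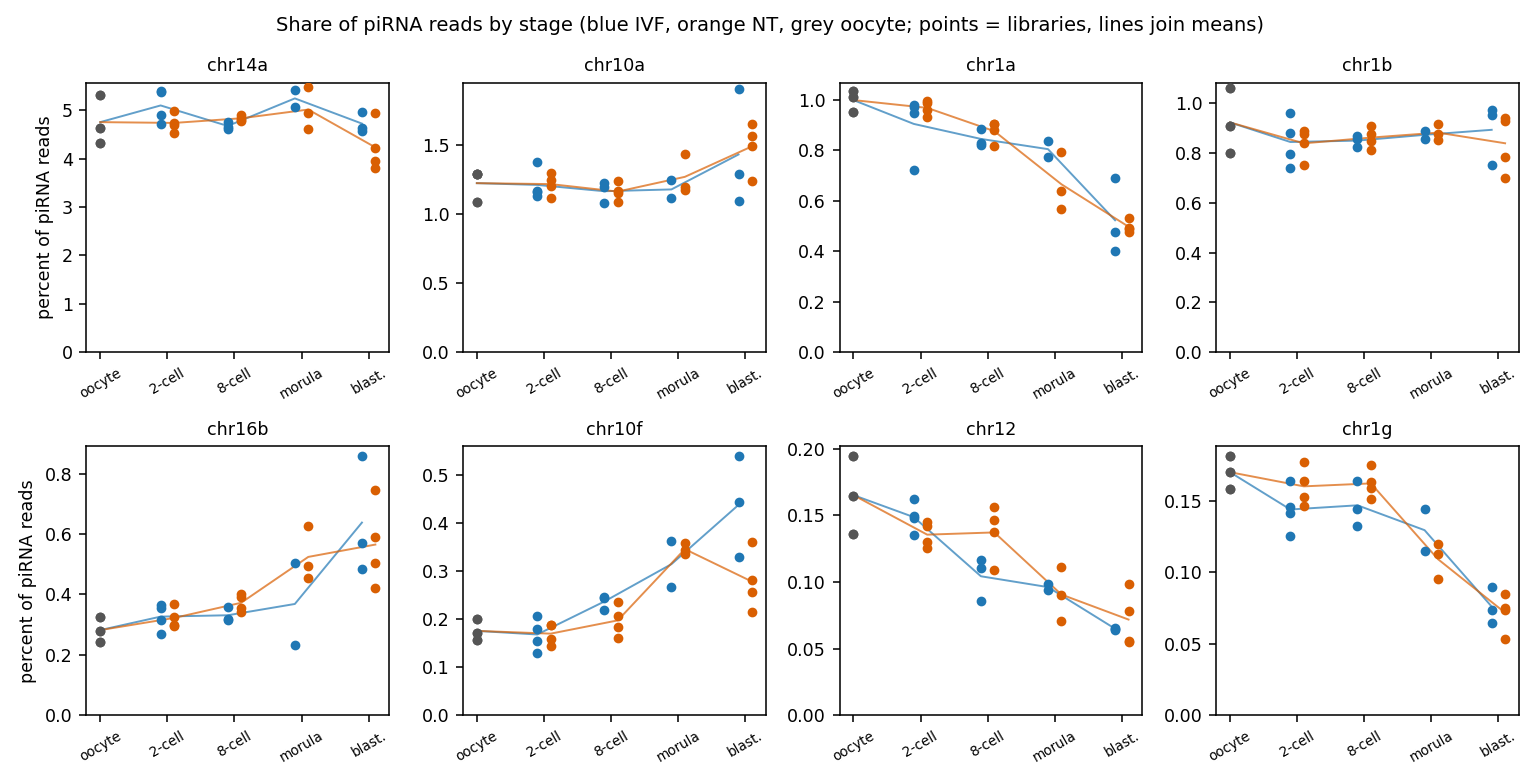
Percent of piRNA reads by stage for the 4 clusters with the most rows (upper panels) and the 2 largest rises and 2 largest falls (lower panels), 1 point per library with lines through group means, without IVF morula replicates 1 and 3. chr1a, chr12 and chr1g fall from the oocyte to the blastocyst, and chr16b and chr10f rise. For chr14a, chr10a and chr1b no change between these stages was called in the share fit.

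chr13 and chr3, with the highest mean normalised reads of the 34 in fibroblasts, and chr11c, which with chr13 had the highest in derived cells, showed no call in IVF blastocysts by share. chr13 held 0.805%, 0.792% and 0.897% of piRNA reads in oocytes, 0.729%, 1.10% and 0.673% in IVF blastocysts and 0.742%, 0.773%, 0.799% and 0.737% in NT blastocysts, with overlapping groups (limma adjusted p = 0.909 and 0.427). chr3 held 3.60%, 3.40% and 3.06% in oocytes, 3.32%, 3.31% and 3.45% in IVF blastocysts and 3.25%, 3.16%, 2.79% and 2.73% in NT blastocysts. Its NT change of -0.17 (SE 0.07, limma adjusted p = 0.0437) lost its call without any of oocyte replicates 1 and 3 and NT blastocyst replicates 3 and 4. chr11c had a change of -0.62 in NT blastocysts (SE 0.23, limma adjusted p = 0.0316), which lost its call without oocyte replicate 1 (0.176) or NT blastocyst replicate 4 (0.175).

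By share, NT and IVF embryos differed in 0 of 34 clusters at the 2-cell, 8-cell and morula stages, where 0.41%, 0% and 0% of all clusters were called. At an unadjusted p under 0.05 there were 1, 0 and 4. For IVF morulae this fit held only replicates 2 and 4. On the log2 scale the SE of the morula test ran from 0.08 in chr3 to 0.37 in chr11d. The lack of a call therefore does not show equal shares. In blastocysts 1 cluster, chr10f, was lower in NT by -0.65 (SE 0.18, limma adjusted p = 0.0424), where 2.05% of clusters were lower and 1.02% higher (3.07% called) and 7 of the 34 had an unadjusted p under 0.05. The call was lost without a trend (limma adjusted p = 0.155), in the fit of only these groups (0.514) and with the replicate block (0.977). With rows of 1 hit, as a share of the piRNA reads on such rows, the direction turned (1.20). It also depends on single libraries: chr10f had an adjusted p of 0.182 without IVF blastocyst replicate 3, 0.0858 without IVF blastocyst replicate 4, 0.124 without NT blastocyst replicate 1 and 0.0982 without NT blastocyst replicate 4. Over these omissions the count of clusters called ran from 0 to 3, with 1 higher in NT without IVF blastocyst replicate 3, 2 lower without NT blastocyst replicate 2 and 3 lower without NT blastocyst replicate 3.

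Inside clusters, rows changed places between the oocyte and the blastocyst. The rows given here are those whose part of their cluster's reads moved most, chosen by that change, so their values are a description with no test. In 10 of the 34 clusters the leading row of oocytes led in neither blastocyst group, in 20 a row gained 10 percentage points or more, and in 11 a row lost that much. In chr10a a row without mismatch that also names chr14a and chr14b (chr14:40539007-40551843) held 11.8%, 9.91% and 12.7% of the cluster's reads in oocytes. It held 42.4%, 50.8% and 52.1% in IVF blastocysts and 65.1%, 60.3%, 54.1% and 68.3% in NT blastocysts, so every blastocyst library lay above every oocyte library. The means on the way were 21.2% and 16.8% at the IVF and NT 8-cell stage and 37.5% in NT morulae. The former leading row of chr10a, which also names chr14b and a cluster on chromosome 15, went from a mean of 26.8% to 7.70% and 5.62%.

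A like shift in the parts held by rows appeared in 2 smaller clusters of chromosome 10. In chr10f a row with the mismatch C15T went from 7.14%, 7.17% and 5.45% in oocytes to 56.8%, 23.4% and 47.7% in IVF blastocysts and 36.2%, 13.6%, 46.8% and 54.8% in NT blastocysts. In normalised reads this row stood at 227, 255 and 169 in oocytes and 167, 115 and 152 in IVF blastocysts, while the row that led in oocytes, with A17G, went from 1122, 902 and 795 to 6.69, 24.6 and 12.2. In chr10k (chr10:80821066-80829790), named after its values were seen, a row shared with the left-out clusters of chromosomes 17 and 23 rose from a mean of 7.95% to 39.5% and 43.1%, and the leading row of oocytes fell from 46.2% to 21.6% and 4.72%. These parts rest on few reads in blastocysts: the rising chr10k row stood at 26.8, 21.1 and 18.8 normalised reads in IVF blastocysts. In NT blastocysts chr10k as a whole held a mean of 36.0 normalised reads.

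**Figure D5:**
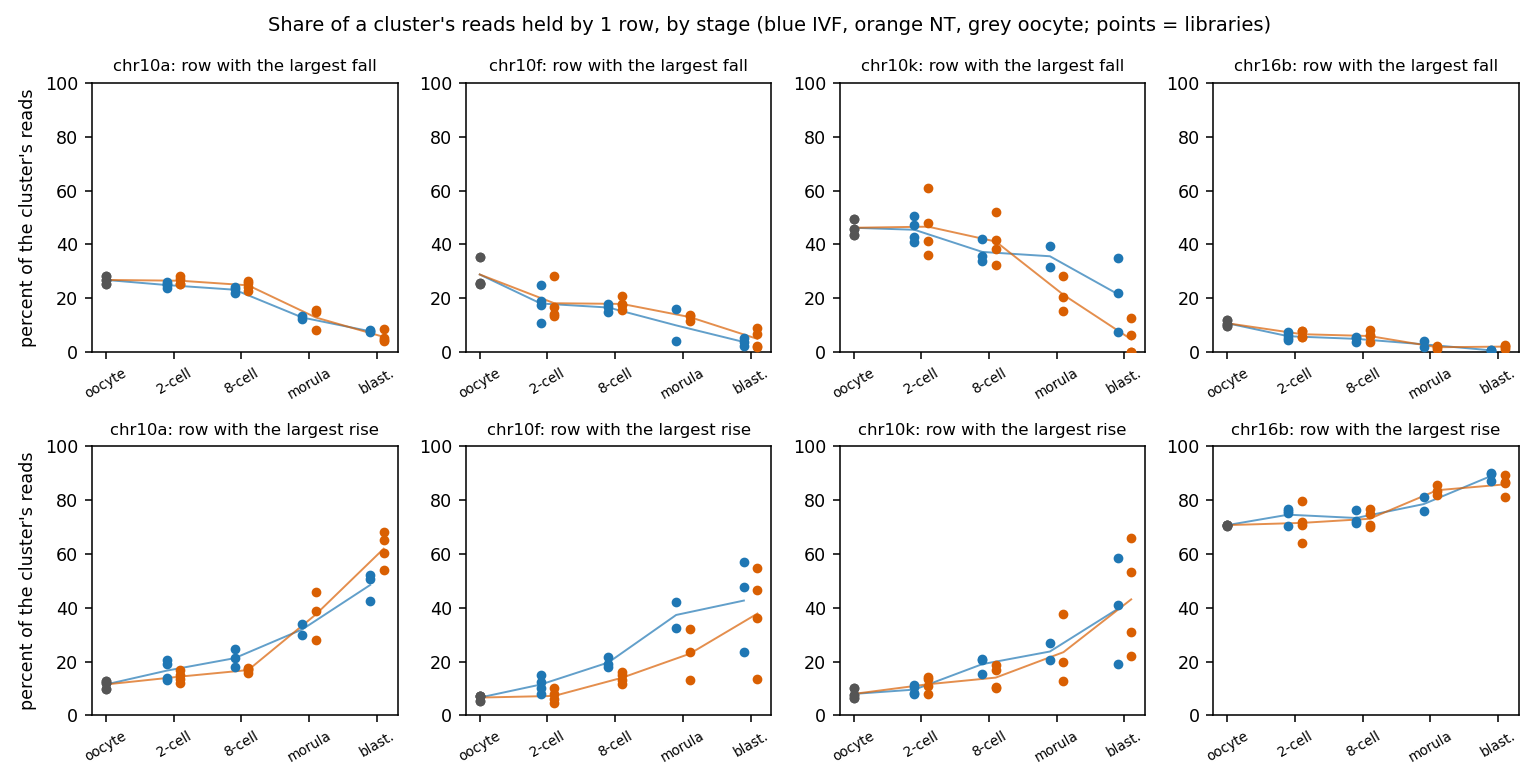
Percent of a cluster's reads held by 1 row in chr10a, chr10f, chr10k and chr16b at each stage, 1 point per library with lines through group means, without IVF morula replicates 1 and 3. The upper panels show the row with the largest fall and the lower panels the row with the largest rise. In chr10a the rising row goes from 9.91% to 12.7% in oocytes to 42.4% to 68.3% in blastocysts.

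In chr16b the pattern was one of concentration. Its leading row, with 1 hit and no mismatch, held 70.8%, 70.5% and 70.8% of the cluster's reads in oocytes, 90.1%, 87.2% and 89.8% in IVF blastocysts and 89.3%, 86.7%, 81.2% and 86.3% in NT blastocysts. Another row of the cluster, C22T, had a mean of 10.7% in oocytes and 0.610% and 2.01% in IVF and NT blastocysts. In chr14a, by contrast, the leading row moved only from a mean of 71.0% to 64.4% and 63.9%.

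The few reads in fibroblasts and derived cells came from particular rows. Over the 11 libraries with under 10000 piRNA reads other than IVF morula replicate 3, 252 reads fell on 35 rows of 17 clusters. chr13 took 142 of them (56.3%), on 8 rows. Its row with the mismatch A1G had 20 reads in fibroblast replicate 1, 9 in NT derived cells replicate 3 and 7 in fibroblast replicate 4, and this is the row with 1127 reads in IVF morula replicate 3, 30.5% of that library's piRNA reads (Wilson 95% interval 29.0% to 32.0%, counting error only). In oocytes the row stood at 247 to 541 normalised reads and held 1.65% to 3.90% of the cluster. The chr13 row without mismatch that led in oocytes, at 8959 to 11124 normalised reads, had 40 reads over 5 of the 11 libraries. Of these, 17 were in NT derived cells replicate 4 and 14 in IVF derived cells replicate 4. Another chr13 row, T1G, had 21 reads over 5 of the 11 libraries and none in oocytes.

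chr11c (chr11:5411236-5436792) had its reads in derived cells on a single row. All of its 18 reads in these libraries lay on 1 row, with the mismatch A8C, found in 4 of 4 IVF derived-cell libraries, in 1 of 3 NT derived-cell libraries and in IVF morula replicate 1. That row had no read in any of the 3 oocyte libraries, where chr11c as a whole held 1491 to 2617 normalised reads. chr14a, the largest cluster in oocytes, had 16 reads on its leading row over 4 of the 11 libraries. chr3 stood at 0 to 3.53 normalised reads in fibroblasts and at 47247 to 77215 in oocytes. At these depths the counts show which rows are found and do not rank the clusters.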

How the data were processed

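The authors trimmed reads with Trim Galore and used DESeq2 and builds bosTau8 and UMD3.1, per the submitters' processing notes. Neither versions nor an aligner are given in the sources used here. What the authors deposited are log2 values after a variance-stabilising transformation. Inverting it gave normalised reads. Dividing by a step found for each library made 100% of 188126 values whole to within 0.01 reads, the smallest value of a library being assumed to stand for 2 reads. No sequences were printed, since none are in the files used here.

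Rows were summed by first hit. limma 3.58.1 (R 4.3.3) fitted 12 groups with a trend (30 residual and 23.85 prior degrees of freedom) to features with at least 10 normalised reads in 3 libraries, with a pseudocount of 1 and adjusted p threshold of 0.05. Set alternatives were filters, a pseudocount of 10, scalings, voom, fits of fewer groups or rows, a replicate block and leaving out libraries; the share fit was added. On simulated data the level test made more false calls than its threshold allows, nearly all among features with low means and none among the 34 clusters. The simulation gave all features the same dispersion and, apart from the changed features, the same mean in every group. It held no groups nearly without piRNA, and the share fit was not simulated, so it does not give the error rate of the real fits. Between NT and IVF, same-numbered libraries went together weakly in morulae (correlations 0.16, 0.12 and 0.14) and in 2-cell embryos (0.16, 0.16, 0.32 and 0.01). At the other stages these correlations had both signs. The block called no cluster in level between NT and IVF. Nothing in the labels says that libraries are separate cultures, so p-values measure the spread between libraries. Named in full were the 4 clusters with most rows, any called in NT against IVF, the 2 largest rises and falls in share, and the 2 highest in fibroblasts and in derived cells; other clusters were named after their values were seen. Members and lists were chosen with earlier results of these data known.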

Additional observations from a re-analysis of the deposited data

Results flagged for a closer look

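In groups of 4 libraries, 8 shares of named clusters stood far from the other 3, of 60 groups looked at; chance gives about 1 in 20. chr13 held 30.5% of piRNA reads in IVF morula replicate 3, all on the row A1G, and 1.10% in NT 8-cell replicate 3. In IVF 2-cell embryos chr10a was high in replicate 4 at 1.38%, chr11c was high in replicate 4 at 0.121%, and chr1a was low in replicate 3 at 0.720%. In IVF blastocyst-derived cells replicate 4 chr10a, chr1a and chr1b each held 0.0858% of piRNA reads, which is 2 reads, against 0 in the other 3 libraries; with 3 libraries at 0 any read stands apart, so these 3 carry no weight. Of 136 tests of whether the NT and IVF difference in level changed from one stage to the next, none was called (lowest limma adjusted p = 0.205). The estimates from morula to blastocyst ran from -6.44 to -2.71 and include IVF morula replicates 1 and 3.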

How the results depend on the processing

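Most reads of the clusters lie on rows with several hits. Using rows with 1 hit only, which leaves few clusters to test, 5, 7, 1, 1 and 7 clusters were lower in level in IVF blastocysts, NT blastocysts, IVF derived cells, NT derived cells and fibroblasts, and by share 2, 0 and 0 were called for IVF blastocysts, NT blastocysts and NT against IVF blastocysts. The summed share of the clusters in all piRNA reads was then 0.242% in oocytes, 0.599% in IVF and 0.543% in NT blastocysts. Without each cluster's leading row it was 12.2%, 12.7% and 11.97%. The changes of single clusters are in shares of the piRNA reads that each fit kept, so they are not on the scale of the main share fit. With rows of 1 hit chr10f changed by -4.16 and -2.97 (1.20 for NT against IVF blastocysts) and chr16b by -0.081 in NT. Without leading rows chr16b changed by -0.50 and -0.29 and chr3 by -0.23 in IVF blastocysts.

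For levels against oocytes, IVF and NT blastocysts had 8 called in IVF with medians centred, 1 and 8 with voom, and 0 and 0 scaled to piRNA reads in the fit of all libraries, where chr10a changed by 0.19 and 0.28, chr3 by 0.0048 (IVF), chr16b by 0.98 and chr10f by 0.64 (NT). NT against IVF morulae gave 33 with medians centred and 14 scaled to piRNA reads, and leaving out single libraries gave 0 to 31; for IVF blastocysts against oocytes it gave 26 to 31. By share it gave 15 to 19 and 16 to 22 for IVF and NT blastocysts against oocytes, and 0 to 3 for NT against IVF blastocysts. Without a trend NT blastocysts had 13 by share and NT against IVF 0, as had the fit of only those groups.

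With the replicate block, where the numbers may be only labels, 3 and 13 clusters were called by share in IVF and NT blastocysts and 0 for NT against IVF blastocysts. In level it called 34 for every comparison with oocytes or with derived cells, and 0 for NT against IVF. In NT against IVF derived cells no cluster passed the filter in that fit or in the fit of only those groups. The cause of these differences was not tested. Depth limits the libraries with 486 to 9566 piRNA reads: intervals and floors there cover counting error only.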
